A study of Homo sapiens with 12 samples.

Results

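Mucins are large glycoproteins that coat epithelia, and 10 mucin genes were followed here in A549 cells, an established human lung adenocarcinoma cell line. The members were taken from the gene count table by name, as the rows called MUC1, MUC2, MUC3A, MUC4, MUC5AC, MUC5B, MUC13, MUC16, MUC19 and MUC20, and all 10 were found among the 58735 rows. Each of them passed the filter on low counts that left 17829 genes for testing. RNA-Seq had been performed on 4 groups of 3 libraries each. These were attached control A549 cells, attached GFI1-expressing A549 cells, floating control A549 cells and floating GFI1-expressing A549 cells, all grown in RPMI1640 medium with fetal bovine serum, and floating cells had spent 48 hours in forced suspension. GFI1 is a zinc finger transcriptional repressor best known from blood cell development, and the comparisons asked how its expression and the loss of attachment change these cells. The GFI1 cDNA had been delivered by a lentivirus with a phosphoglycerate kinase promoter and a GFP marker by which transduced cells were sorted, so these cells were a sorted pool and GFI1 was not under its own promoter. The paper names an empty vector for the control A549 cells of its xenografts, but does not name one for those of the RNA-Seq. The labels do not mention one either, and do not say whether the replicates of a group came from separate cultures. The p values therefore measure the spread between these libraries, which may be technical.

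Gel-forming mucins (MUC2, MUC5AC, MUC5B and MUC19) are secreted. They are folded and linked in the endoplasmic reticulum, decorated with O-glycans in the Golgi, packed into granules and released as the gel that traps particles on the airway surface, and in the airway this gel is built mainly by MUC5AC and MUC5B. Membrane mucins (MUC1, MUC3A, MUC4, MUC13, MUC16 and MUC20) stay anchored at the apical surface, where they form a barrier, and several of them also signal through their cytoplasmic tails. MUC19 is known mainly from salivary glands.

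The sequences before the gene starts are shown first, for 3 members whose levels differed between control and GFI1-expressing cells in both attached and floating cells and for which a RefSeq entry was at hand. RefSeq promoters (GRCh38.p14) were matched for 7 of the 10 members, and MUC5AC, MUC5B and MUC20 had no entry in the table used. Each line gives the 250 bases that precede the start, 5′ to 3′ on the strand of the gene, and the capitals mark the letters AATC or their reverse complement GATT, the core of the known GFI1 binding motif. The MUC19 window lies at chr12:40393144-40393393 on the plus strand, and the MUC1 window at chr1:155192916-155193165 on the minus strand. The MUC16 window lies at chr19:9010410-9010659 on the minus strand, and its start is 29067 bases away from the start of MUC16 in the count table, so that it may not be the start used in these cells.
MUC19: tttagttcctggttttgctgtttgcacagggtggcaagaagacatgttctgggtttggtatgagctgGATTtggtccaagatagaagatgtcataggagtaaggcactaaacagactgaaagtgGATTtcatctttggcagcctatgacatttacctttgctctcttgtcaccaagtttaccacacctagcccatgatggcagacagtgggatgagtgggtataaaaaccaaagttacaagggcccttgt
MUC1: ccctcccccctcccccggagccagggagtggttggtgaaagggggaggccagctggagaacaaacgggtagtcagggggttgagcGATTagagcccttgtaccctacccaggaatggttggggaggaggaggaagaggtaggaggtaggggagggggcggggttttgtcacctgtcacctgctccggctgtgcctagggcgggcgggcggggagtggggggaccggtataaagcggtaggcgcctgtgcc
MUC16: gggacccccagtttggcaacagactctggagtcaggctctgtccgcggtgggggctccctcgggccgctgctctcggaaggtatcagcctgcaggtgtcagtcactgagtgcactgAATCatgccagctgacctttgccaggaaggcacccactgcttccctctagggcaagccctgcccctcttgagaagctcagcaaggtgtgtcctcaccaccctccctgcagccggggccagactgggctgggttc
The MUC19 window held this core at 183 and 126 bases before the start, both on the opposite strand, the MUC1 window at 165 bases on the opposite strand, and the MUC16 window at 134 bases on the strand of the gene. Of the other matched members, MUC2, MUC4 and MUC13 held the core as well, and MUC3A did not. These letters are common, and 64.8% of 35116 RefSeq promoters of the same length held them on either strand. The longer form AATCAC (reverse GTGATT, which contains the core) stood in 9.02% of all promoters and, among the 7 matched members, in MUC4 at 66 bases before the start. The letters TATAA (reverse TTATA) were found in 18.9% of all promoters and in MUC1, MUC2, MUC13 and MUC19, at 24, 28, 89 and 30 bases before the start, where the RefSeq start of MUC13 is 19068 bases away from that in the count table. The hypoxia-inducible factor core ACGTG (reverse CACGT) was found in 18.5% of all promoters and in none of the 7 windows. A match of letters describes a sequence and is not evidence of binding.

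Total counts ran from 17014188 to 20748677 per library. The targeted gene followed the labels, with 4 to 12 counts of GFI1 in control libraries, 5154 to 6378 in attached GFI1 libraries and 8649 to 12796 in floating GFI1 libraries. GFI1 itself was higher in floating than in attached GFI1 cells by 0.95 ± 0.10 on the log2 scale (SE, adjusted p = 2.38e-08, edgeR). On the first 2 principal components, floating GFI1 replicate 3 lay apart from the other libraries of its group. Without it, the calls of MUC2 with suspension in GFI1 cells (adjusted p = 0.0656), of MUC3A with GFI1 in floating cells (0.0538) and of MUC4 with GFI1 in attached cells (0.0590) were lost, and no other member's call in the 5 comparisons changed.

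**Figure D1:**
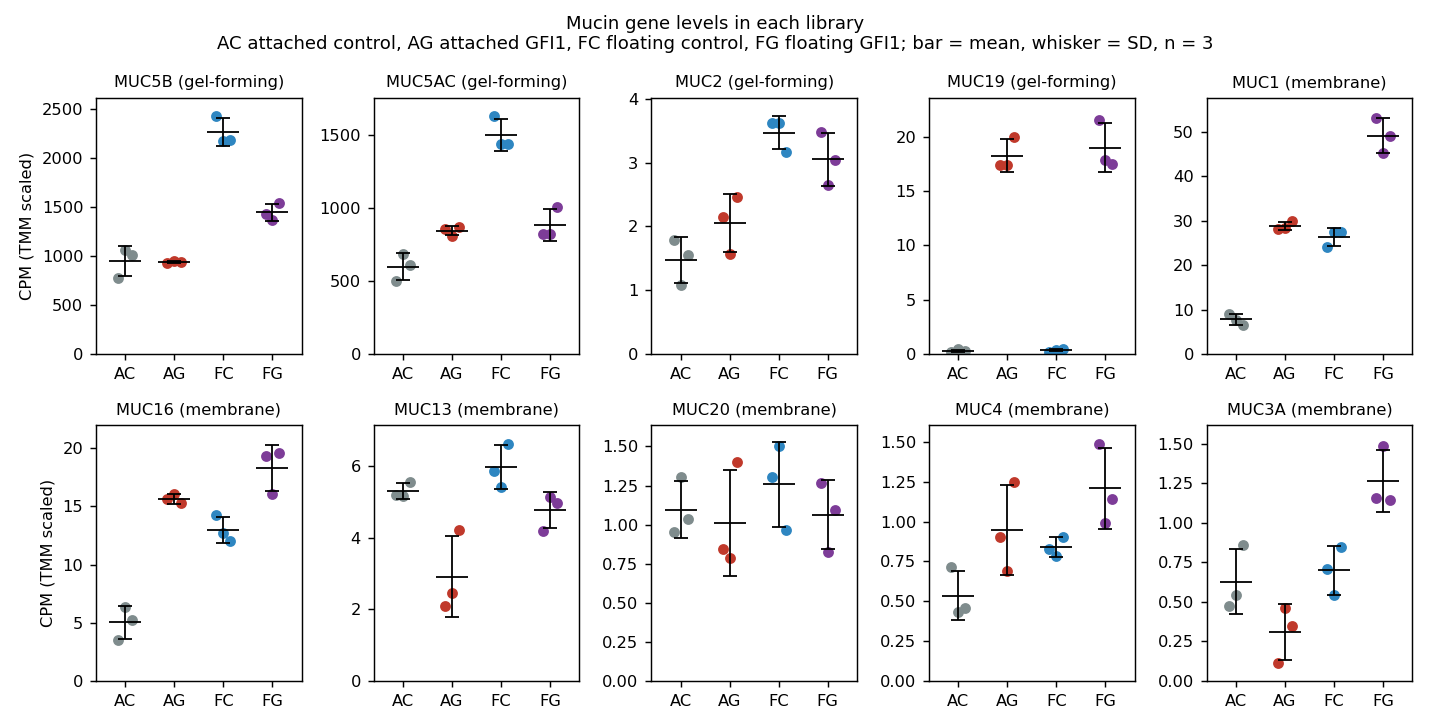
Levels of the 10 mucin genes in each of the 12 libraries, in CPM (counts scaled to library size, with TMM factors), 1 panel a gene with its own axis from 0. Points are libraries, long bars are means and whiskers are SDs (n = 3). MUC19 separates GFI1-expressing from control libraries, MUC5B and MUC5AC are highest in floating control cells, and MUC1 is lowest in attached control cells and highest in floating GFI1 cells.

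Levels of different genes were compared per length, as counts divided by gene length and library size (FPKM), and the order of the genes was headed by the airway gel formers in every group. MUC5B (chr11:1223066-1262172, plus strand) and MUC5AC (chr11:1157953-1201138, plus strand) came first and second, at mean levels of 51.2 and 34.2 FPKM in attached control cells, 50.7 and 48.5 FPKM in attached GFI1 cells, 121.8 and 86.0 FPKM in floating control cells, and 77.9 and 50.7 FPKM in floating GFI1 cells. The libraries of these genes did not overlap within any group. In attached GFI1 cells they were barely apart, with the highest MUC5AC library at 49.99 FPKM and the lowest MUC5B library at 50.04 FPKM. Together MUC5B and MUC5AC held between 95.5% and 98.8% of the counts of the 10 members in each library, and the 10 members together held between 0.122% and 0.392% of all counts. By count, MUC5B ranked between 31 and 130 among all genes of a library and MUC5AC between 53 and 248. MUC1 took place 3 in every group, at 1.65 FPKM in attached control, 6.11 FPKM in attached GFI1, 5.58 FPKM in floating control and 10.4 FPKM in floating GFI1 cells. MUC13 took place 4 in every group, at means from 0.832 to 1.71 FPKM. Its range overlapped that of MUC1 in attached control cells and that of MUC19 in attached GFI1 cells.

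The other 6 genes stayed below 1 FPKM. MUC19 was last in both control groups, at 0.0108 FPKM attached and 0.0119 FPKM floating, and at place 5 in both GFI1 groups, at 0.619 and 0.644 FPKM. MUC16, MUC20 and MUC2 took the middle places, at means of 0.115 to 0.418 FPKM. In attached control cells MUC2 and MUC16 overlapped, in attached GFI1 and floating GFI1 cells MUC20 and MUC2, and in floating control cells MUC16 and MUC20, and MUC20 and MUC2. MUC3A and MUC4 were at 0.0251 to 0.111 FPKM, apart from each other in 3 groups and overlapping in attached GFI1 cells, where MUC3A was last. Their counts were small, and MUC3A had 2 to 27 counts and MUC4 had 8 to 27 counts per library.

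**Figure D2:**
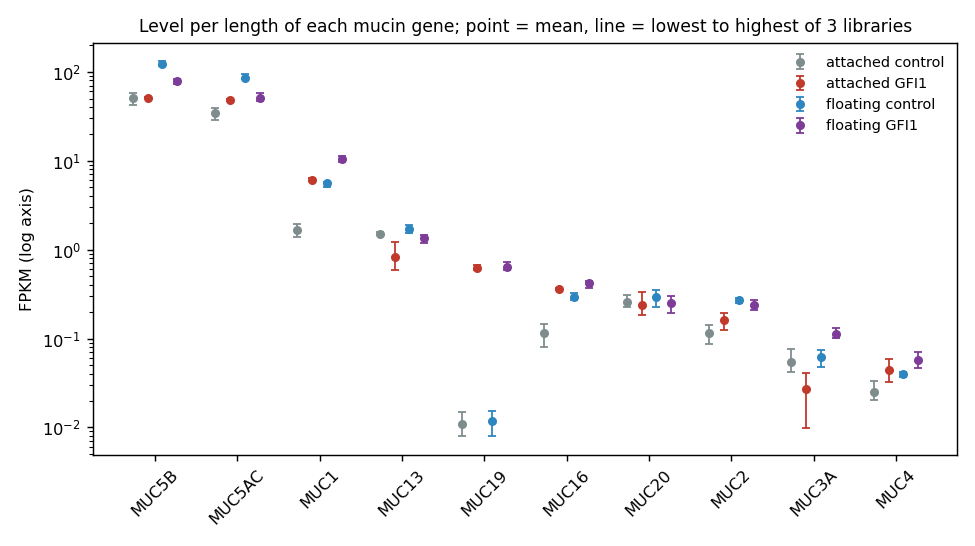
Level of each mucin gene per length (FPKM, log axis) in the 4 groups. Points are means and lines run from the lowest to the highest of 3 libraries. MUC5B and MUC5AC lie between 34.2 and 121.8 FPKM on average, MUC1 and MUC13 between 0.832 and 10.4 FPKM, and MUC19 changes places between the control groups and the GFI1 groups.

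MUC19 showed the widest range of group means among the members. It had 4, 8 and 5 counts in attached control replicates 1 to 3 and 309, 376 and 399 counts in attached GFI1 replicates. In floating control replicates it had 4, 6 and 8 counts, and in floating GFI1 replicates 391, 324 and 352. All 6 GFI1 libraries were therefore far above all 6 control libraries, with no overlap. Over all tested genes, the groups compared did not overlap for 67.0% with GFI1 in attached and 64.4% in floating cells. With suspension these shares were 49.9% in control and 41.4% in GFI1 cells. Scaled for depth, the level of MUC19 was 0.320 ± 0.102 CPM in attached control and 18.2 ± 1.5 CPM in attached GFI1 cells, and 0.350 ± 0.108 and 19.0 ± 2.25 CPM in the floating groups (SD, n = 3). The fitted difference was 5.79 ± 0.20 on the log2 scale in attached cells, a 55.4-fold higher level (adjusted p = 1.12e-18, edgeR quasi-likelihood test), and 5.72 ± 0.19 in floating cells, 52.9-fold (adjusted p = 1.16e-18). Because the gene passed the filter on low counts only through its GFI1 libraries, its difference was a condition of its being tested at all. Suspension left a difference of 0.06 ± 0.10 in GFI1 cells (95% interval -0.15 to 0.26, adjusted p = 0.726) and of 0.12 ± 0.45 in control cells (-0.82 to 1.06, adjusted p = 0.870), and the wide interval of the latter goes with its 4 to 8 counts. The interaction of MUC19 was -0.07 ± 0.46 (adjusted p = 0.957). The gene lies at chr12:40393395-40570832 on the plus strand, and the annotated genes overlapping it on the opposite strand had 0 counts.

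MUC5AC, a gel former that surface goblet cells secrete, moved in opposite directions with GFI1 in attached and in floating cells. Attached control replicates stood at 498, 682 and 612 CPM and attached GFI1 replicates at 854, 812 and 872 CPM. Floating control replicates stood at 1628, 1441 and 1435 CPM and floating GFI1 replicates at 821, 823 and 1009 CPM. All attached GFI1 libraries lay above the attached controls, and all floating GFI1 libraries lay below the floating controls. In these comparisons, groups did not overlap for 67.0% and 64.4% of all tested genes, in either direction. The GFI1 difference of MUC5AC was 0.50 ± 0.08 (log2, adjusted p = 8.08e-06) in attached cells and -0.76 ± 0.08 (adjusted p = 1.03e-08) in floating cells. In control cells MUC5AC rose with suspension by 1.33 ± 0.08, or 2.51-fold (adjusted p = 2.17e-12), while in GFI1 cells the difference was 0.06 ± 0.08 (95% interval -0.10 to 0.23, adjusted p = 0.601). The test of the difference between these effects gave -1.26 ± 0.12 (adjusted p = 3.33e-08).

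MUC5B, the gel former of submucosal glands and distal airways, was the most abundant member. Its level was 779, 1068 and 1011 CPM in attached control and 931, 955 and 945 CPM in attached GFI1 replicates, and the groups overlapped (log2 difference -0.01 ± 0.07, 95% interval -0.17 to 0.14, adjusted p = 0.880). Without attached control replicate 1, which was the lowest of its group, the same difference was -0.14 (adjusted p = 0.0264). In floating control replicates MUC5B stood at 2431, 2181 and 2187 CPM, and in floating GFI1 replicates at 1435, 1371 and 1539 CPM. All floating control libraries lay above all others. MUC5B was lower in floating GFI1 than in floating control cells by 1.56-fold (log2 -0.65 ± 0.07, adjusted p = 2.86e-08), and rose with suspension by 1.25 ± 0.07 (adjusted p = 9.09e-13) in control cells and by 0.62 ± 0.07 (adjusted p = 3.27e-07) in GFI1 cells. The difference between the effects was -0.63 ± 0.10 (adjusted p = 0.000136).

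The count ratio of MUC5B to MUC5AC does not depend on how libraries are scaled, and it was examined after these values had been seen. It was 1.59 ± 0.0498 in attached control cells, 1.12 ± 0.0521 in attached GFI1 cells, 1.51 ± 0.0156 in floating control cells and 1.65 ± 0.113 in floating GFI1 cells (SD, n = 3). The 3 attached GFI1 libraries, at 1.08 to 1.18, lay below the other 9 libraries, at 1.49 to 1.75. In the exact two-sided permutation test each of the 4 pairwise comparisons gave p = 0.1, the smallest that 3 against 3 libraries allow. The floating groups were barely apart, with a highest control ratio of 1.52398 and a lowest GFI1 ratio of 1.52407.

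MUC2, the main gel former of the intestine, lies beside MUC5AC in the same cluster (chr11:1074875-1110511, plus strand) and was present at low levels, with 20 to 63 counts per library. It stood at 1.79, 1.09 and 1.55 CPM in attached control and at 3.62, 3.61 and 3.17 CPM in floating control replicates, and these groups did not overlap, as for 49.9% of all tested genes. The rise with suspension was 1.24 ± 0.23 (adjusted p = 8.66e-05) in control cells. In GFI1 cells MUC2 stood at 2.14, 1.57 and 2.45 CPM attached and at 3.47, 2.65 and 3.03 CPM floating, a difference of 0.58 ± 0.21 (adjusted p = 0.0403). That call was lost without attached GFI1 replicate 1 or 2, or floating GFI1 replicate 1 or 3 (adjusted p from 0.0638 to 0.196), with DESeq2 (adjusted p = 0.147), without a filter on low counts (0.0552) and in a fit of only the compared groups (0.0561). The GFI1 difference in attached cells was 0.48 ± 0.24 (95% interval -0.02 to 0.97, adjusted p = 0.0882), and that in floating cells -0.18 ± 0.20 (-0.60 to 0.23, adjusted p = 0.451). Without attached control replicate 1 or attached GFI1 replicate 2 the attached difference passed the threshold (adjusted p = 0.0495 and 0.0291). The interaction of MUC2 was -0.66 ± 0.31 (adjusted p = 0.209).

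Among the membrane mucins, MUC1, a broadly expressed epithelial mucin with a signaling tail, was the most abundant, and it lies at chr1:155185824-155192916 on the minus strand. Attached control replicates had 9.05, 7.77 and 6.60 CPM, attached GFI1 replicates 28.2, 28.4 and 29.8 CPM, floating control replicates 24.1, 27.4 and 27.5 CPM and floating GFI1 replicates 53.0, 45.3 and 49.1 CPM. The attached controls were below and the floating GFI1 libraries above all other libraries, and attached GFI1 cells lay just above floating controls. MUC1 was higher with GFI1 by 1.89 ± 0.10 (3.70-fold, adjusted p = 4.61e-15) in attached and by 0.90 ± 0.08 (1.87-fold, adjusted p = 1.52e-10) in floating cells. It rose with suspension by 1.75 ± 0.10 (3.37-fold, adjusted p = 2.63e-13) in control and by 0.77 ± 0.07 (1.70-fold, adjusted p = 1.21e-08) in GFI1 cells. The effects together came to less than their sum on the log2 scale, by 0.99 (interaction -0.99 ± 0.12, adjusted p = 4.54e-06).

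MUC16, the very large membrane mucin that carries the CA125 antigen (chr19:8848844-8981342, minus strand), was called in the same direction as MUC1 in 3 of the 4 pairwise comparisons. Attached control replicates had 3.51, 6.35 and 5.28 CPM, attached GFI1 replicates 15.6, 16.1 and 15.3 CPM, floating control replicates 14.2, 12.8 and 12.01 CPM and floating GFI1 replicates 19.4, 16.04 and 19.6 CPM. The attached controls were again apart from and below all other libraries. MUC16 was higher with GFI1 by 1.62 ± 0.14 (3.08-fold, adjusted p = 1.03e-10) in attached and by 0.50 ± 0.12 (1.41-fold, adjusted p = 0.000623) in floating cells, and rose with suspension by 1.35 ± 0.14 (adjusted p = 1.93e-08) in control cells. In GFI1 cells the suspension difference was 0.23 ± 0.11 (adjusted p = 0.126), where the groups overlapped, and without floating GFI1 replicate 2 it was 0.30 and passed the threshold (adjusted p = 0.0389). The interaction was -1.12 ± 0.18 (adjusted p = 0.000108).

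MUC13, a membrane mucin of the gastrointestinal tract (chr3:124905442-124953819, minus strand), differed from MUC1 and MUC16 in falling with GFI1 in attached cells. It had 5.18, 5.16 and 5.57 CPM in attached control and 2.08, 2.45 and 4.21 CPM in attached GFI1 replicates, of which replicate 3 stood nearest to the controls. The difference was -0.86 ± 0.19 (adjusted p = 0.000375). Floating control replicates had 5.87, 5.42 and 6.63 CPM and floating GFI1 replicates 4.19, 5.13 and 4.97 CPM, a difference of -0.33 ± 0.18 (95% interval -0.69 to 0.04, adjusted p = 0.116). Suspension raised MUC13 by 0.70 ± 0.19 (adjusted p = 0.00600) in GFI1 cells, although floating GFI1 replicate 1 overlapped attached GFI1 replicate 3, and the difference was 0.17 ± 0.18 (-0.19 to 0.54, adjusted p = 0.476) in control cells. The interaction was 0.53 ± 0.26 (adjusted p = 0.225). Without attached GFI1 replicate 3 it was 0.90 and passed the threshold (adjusted p = 0.0166), the GFI1 difference in attached cells was -1.22 and the suspension difference in GFI1 cells 1.07.

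MUC3A, a membrane mucin of the intestine (chr7:100949555-100968346, plus strand), was near the limit of detection. It had 8, 10 and 15 counts in attached control, 2, 10 and 7 counts in attached GFI1, 12, 9 and 15 counts in floating control and 21, 27 and 23 counts in floating GFI1 replicates, the only group in which every library passed the filter on low counts. Scaled for depth, floating GFI1 libraries were the highest and attached GFI1 libraries the lowest of the 4 groups, without overlap. With suspension MUC3A rose by 1.96 ± 0.39 (3.90-fold, adjusted p = 0.000359) in GFI1 cells, and in control cells the difference was 0.16 ± 0.40 (adjusted p = 0.785). Its GFI1 difference was 0.84 ± 0.35 (adjusted p = 0.0433) in floating and -0.96 ± 0.45 (adjusted p = 0.0651) in attached cells, and the interaction was 1.80 ± 0.57 (adjusted p = 0.0419). The floating call was lost in 7 of the 12 fits that left out 1 library (adjusted p from 0.0504 to 0.151), and held only without attached control replicate 3, any attached GFI1 replicate or floating control replicate 3. It was also lost with DESeq2 (adjusted p = 0.162) and without a filter on low counts (0.0699). The interaction call was lost in 8 of the 12 (adjusted p from 0.0606 to 0.155), and held only without attached control replicate 1, attached GFI1 replicate 2, floating control replicate 3 or floating GFI1 replicate 3. Without attached GFI1 replicate 2 the attached difference was -1.38 (adjusted p = 0.0327).

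MUC4, a membrane mucin that binds the receptor ERBB2, and MUC20, a regulator of the MET receptor, are neighbours on chromosome 3 (chr3:195746765-195812277, minus strand, and chr3:195720882-195741123, plus strand). MUC4 had 12, 8 and 8 counts in attached control, 16, 15 and 25 counts in attached GFI1, 14, 13 and 16 counts in floating control and 27, 18 and 23 counts in floating GFI1 replicates. The GFI1 difference was 0.82 ± 0.36 (adjusted p = 0.0495) in attached cells, where, scaled for depth, 1 attached control library lay within the range of the GFI1 libraries. This call was lost in 8 of the 12 fits that left out 1 library (adjusted p from 0.0581 to 0.244), and held only without attached control replicate 1, attached GFI1 replicate 2 or floating GFI1 replicate 1 or 2. It was also lost with DESeq2 (adjusted p = 0.159), without a filter on low counts (0.113), with robust empirical Bayes (0.0553) and with the replicate block (0.0504). In floating cells the difference was 0.52 ± 0.32 (adjusted p = 0.168). For suspension, MUC4 gave 0.65 ± 0.37 (adjusted p = 0.176) in control cells and 0.35 ± 0.31 (adjusted p = 0.430) in GFI1 cells, and its interaction was -0.30 ± 0.48 (adjusted p = 0.776).

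MUC20 had 15 to 28 counts per library, all 4 groups overlapped, and none of its 4 pairwise differences passed the threshold, with values of -0.12 ± 0.31 and -0.24 ± 0.31 for GFI1 in attached and floating cells and of 0.19 ± 0.31 and 0.07 ± 0.31 for suspension in control and GFI1 cells. Their 95% intervals reached from -0.87 to 0.83, so that changes within each interval are compatible with these counts. The interaction of MUC20 was -0.11 ± 0.44 (adjusted p = 0.919). The gene overlaps MUC20-OT1, a noncoding RNA of the same strand with 439 to 702 counts, over 19083 bases, and a pseudogene of it is annotated as well, so the MUC20 count is uncertain. Mucin genes hold long repeats, and whether reads that fit several places were dropped or shared by the counting was not tested.

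Counted over the 10 members, GFI1 expression in attached cells went with higher levels of MUC1, MUC4, MUC5AC, MUC16 and MUC19 and a lower level of MUC13. These 6 calls (5 higher, 1 lower) stand beside 62.3% of the 17829 tested genes called in either direction, 29.5% higher and 32.8% lower, so that the share of members called was near that of all genes. MUC19 passed the filter on low counts only through its GFI1 libraries, so its calls here and in floating cells are not independent of that filter. The calls of MUC4 here and of MUC3A in floating cells were lost in 8 and 7 of the 12 fits that left out 1 library. The members' median log2 difference was 0.49 and that of all tested genes -0.007. In floating cells, MUC1, MUC3A, MUC16 and MUC19 were higher and MUC5AC and MUC5B lower with GFI1, beside 60.4% of all tested genes called in either direction, 29.3% higher and 31.1% lower, and the medians were 0.16 for the members and 0.011 for all genes. Attached and floating comparisons have no library in common, and the difference between them passed the threshold for MUC3A in the positive direction and for MUC1, MUC5AC, MUC5B and MUC16 in the negative direction. These 5 calls stand beside 10.8% of all tested genes called for that interaction, 4.76% positive and 6.01% negative, and the median interaction was -0.47 for the members and -0.004 for all genes.

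**Figure D3:**
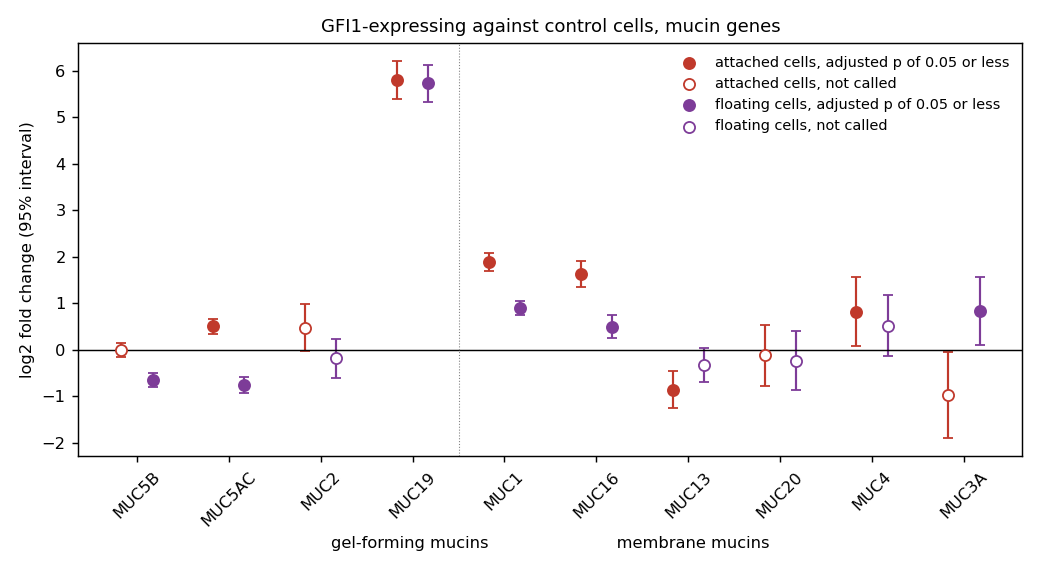
Log2 fold change of GFI1-expressing over control cells for the 10 mucin genes, in attached and in floating cells, with 95% intervals. Filled points have an adjusted p of 0.05 or less. MUC19 stands at 5.79 and 5.72, MUC5AC is above 0 in attached cells (0.50) and below 0 in floating cells (-0.76), and MUC1 and MUC16 are closer to 0 in floating than in attached cells.

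Suspension of control cells raised MUC1, MUC2, MUC5AC, MUC5B and MUC16 and lowered none of the members, beside 40.1% of all tested genes called in either direction, 19.6% higher and 20.5% lower. Each of the 5 rose at least 2-fold, from 2.36-fold for MUC2 to 3.37-fold for MUC1, and the median log2 difference was 0.94 for the 10 members and 0.011 for all genes. For the other 5 members, the differences were 0.12 to 0.65. In GFI1 cells, suspension raised MUC1, MUC2, MUC3A, MUC5B and MUC13 and again lowered none, beside 31.3% of all tested genes called in either direction, 15.0% higher and 16.3% lower. Only MUC3A rose more than 2-fold there, and the medians were 0.46 for the members and 0.002 for all genes. The comparisons within attached cells, within floating cells, within control cells and within GFI1 cells share libraries in pairs, so their counts are not independent of each other.

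**Figure D4:**
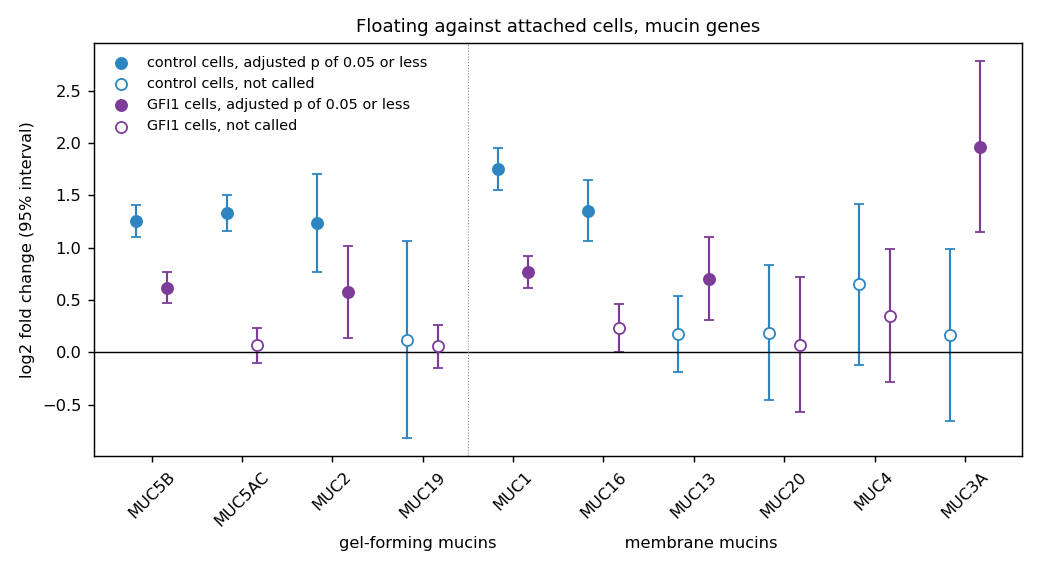
Log2 fold change of floating over attached cells for the 10 mucin genes, in control and in GFI1-expressing cells, with 95% intervals. Filled points have an adjusted p of 0.05 or less. In control cells MUC1, MUC2, MUC5AC, MUC5B and MUC16 lie between 1.24 and 1.75, and in GFI1 cells all of these are below 0.8 while MUC3A is at 1.96.

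The genes beside the members were read from the annotation in the count table. In the chromosome 11 cluster, MUC6, a gel former of the stomach on the minus strand (chr11:1012821-1036706), was lower with GFI1 in floating cells (-0.68 ± 0.22, adjusted p = 0.00830) and higher with suspension in control cells (0.54 ± 0.22, adjusted p = 0.0491), and gave -0.01 ± 0.22 with GFI1 in attached cells and -0.13 ± 0.22 with suspension in GFI1 cells. AC139749.1, a noncoding RNA between MUC6 and MUC2, rose with suspension in control (1.34 ± 0.24) and in GFI1 cells (1.61 ± 0.28) and was lower with GFI1, at log2 differences of -1.02 ± 0.31 attached (adjusted p = 0.00557) and -0.74 ± 0.22 floating (adjusted p = 0.00550). On chromosome 7, MUC12, a membrane mucin that follows MUC3A on the same strand (chr7:100969623-101018949), was lower with GFI1 in attached cells (-1.18 ± 0.31) and also in floating ones (-0.93 ± 0.23), where MUC3A was higher, and rose with suspension by 1.26 ± 0.24 in control and 1.51 ± 0.29 in GFI1 cells.

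TRIM46, a microtubule-associated protein gene that ends next to the end of MUC1 on the opposite strand (chr1:155173787-155184971), was at 3.75 ± 0.904 CPM in attached control, 15.7 ± 0.671 CPM in attached GFI1, 7.23 ± 0.243 CPM in floating control and 20.8 ± 3.29 CPM in floating GFI1 cells (SD, n = 3). It was higher with GFI1 by 2.06 ± 0.14 and 1.53 ± 0.12 and with suspension by 0.94 ± 0.16 and 0.41 ± 0.11, so that it was called in the same direction as MUC1 in all 4 comparisons. AC234582.1, an antisense RNA on the other side of MUC1, was higher with GFI1 in floating cells (0.74 ± 0.23, adjusted p = 0.00677) and gave 0.53 ± 0.24 with GFI1 in attached cells and 0.31 ± 0.25 and 0.52 ± 0.22 with suspension, which did not pass the threshold. LRRK2, a kinase gene upstream of MUC19 on the same strand (chr12:40196744-40369285), was higher with GFI1 by 1.05 ± 0.06 in attached and 0.48 ± 0.06 in floating cells, beside 5.79 and 5.72 for MUC19, and with suspension it was higher in control (0.37 ± 0.06) and lower in GFI1 cells (-0.20 ± 0.06). HEG1, which lies next to MUC13 on the same strand and encodes a mucin-like membrane receptor, was higher with GFI1 (1.26 ± 0.05 attached, 1.76 ± 0.06 floating) and lower with suspension (-1.33 ± 0.06 control, -0.83 ± 0.05 GFI1), in which it went against MUC13. MIR570, beside MUC20, passed the threshold in none of the 4 comparisons (-0.28 ± 0.26 to 0.18 ± 0.26), and the neighbours that were not tested had at most 9 counts in any library.

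Of the protein-coding tested genes, those whose log2 CPM over the 12 libraries was most like MUC19 were CD274, TM4SF20 and ATP8B2 (Pearson r = 0.997 for each). Most like MUC1 were TMEM59, CASC4 and ARMCX3 (r = 0.990 for each). These values describe 12 libraries in 4 groups, and a shared difference between groups is enough for a high value, since 837 of 13760 genes had r over 0.95 with MUC19 and 192 with MUC1.

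Mucins need helpers in the endoplasmic reticulum, and the list of mucin folding and packaging genes had 9 tested of 21 members. With suspension of control cells 8 of the 9 rose and none fell, with a median of 1.43, beside 19.6% higher and 20.5% lower of all tested genes and their median of 0.011. CREB3L1 and TFF1 averaged above the cutoff of the filter (0.554 CPM) only in floating control cells, at 0.883 and 3.21 CPM. Their differences from floating control cells are therefore not independent of that filter. With suspension of GFI1 cells 5 rose and none fell, with a median of 1.08, beside 15.0% and 16.3% of all tested genes and their median of 0.002. FCGBP, a secreted protein that binds to mucin gels, led both with 2.47 ± 0.06 and 1.08 ± 0.05. With GFI1, 3 rose and 4 fell in attached cells (median -0.53), and 2 rose and 6 fell in floating cells (median -0.92), where 29.5% of all tested genes were higher and 32.8% lower in attached and 29.3% and 31.1% in floating cells, with medians of -0.007 and 0.011. AGR2, a disulfide isomerase needed to fold gel-forming mucins, had the lowest p among those that fell in both, from 663 to 10.5 CPM in attached cells (-5.98 ± 0.10) and from 1095 to 17.8 CPM in floating cells (-5.94 ± 0.09). The genes higher with GFI1 were led by FCGBP in attached cells (0.97 ± 0.05) and by BPIFB1, an airway secretory protein, in floating cells (1.35 ± 0.25). FCGBP was also among the 2 genes with a negative interaction (-1.39 ± 0.08), and none was positive, beside 6.01% negative and 4.76% positive of all tested genes. The summed level of the list was 952 to 1032 CPM in attached control, 364 to 384 CPM in attached GFI1, 2075 to 2241 CPM in floating control and 700 to 800 CPM in floating GFI1 libraries, without overlap between groups. Most of the drop in these sums with GFI1 was that of AGR2. FCGBP averaged 136, 265, 755 and 561 CPM in the same order of groups.

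O-glycosylation of mucins starts with the GALNT enzymes. Of 16 tested members, 5 were higher and 7 lower with GFI1 in attached cells (median -0.33), and 5 and 8 in floating cells (median -0.08), beside 29.5% and 32.8% of all tested genes in attached and 29.3% and 31.1% in floating cells. With suspension 4 were higher and 7 lower in control cells (median -0.03), and 4 and 4 in GFI1 cells (median -0.001), beside 19.6% and 20.5% of all tested genes in control and 15.0% and 16.3% in GFI1 cells. The interaction was positive for 2 and negative for 3, beside 4.76% and 6.01% of all tested genes. GALNT9 led the higher genes in all 4 comparisons, with 4.15 ± 0.10 and 2.96 ± 0.08 for GFI1 and 1.72 ± 0.14 and 0.53 ± 0.06 for suspension. GALNT10 led the lower genes with GFI1 (-1.82 ± 0.05 and -1.75 ± 0.05), and GALNT2 those with suspension (-0.58 ± 0.04 and -0.49 ± 0.04).

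Of 21 tested genes that extend or cap the glycans, 9 were higher and 6 lower with GFI1 in attached cells (median 0.15) and 8 and 7 in floating cells (median -0.03), beside 62.3% and 60.4% of all tested genes called in either direction. With suspension, 9 were higher and 1 lower in control cells (median 0.30), 4 and 2 in GFI1 cells (median 0.07), beside 19.6% and 20.5% of all tested genes in control and 15.0% and 16.3% in GFI1 cells. The interaction was positive for 1 and negative for 3, beside 4.76% and 6.01% of all tested genes. GCNT3, a core enzyme of mucin-type glycans, led in attached cells with 1.40 ± 0.05, and C1GALT1, the core 1 synthase, in floating cells with 1.06 ± 0.05. B4GALT4, a galactosyltransferase, led the lower genes with GFI1 in both (-0.81 ± 0.05 and -0.95 ± 0.05). With suspension, B3GNT3 led the higher genes in control cells (1.07 ± 0.09) and B4GALT5 in GFI1 cells (0.42 ± 0.04), and the lower ones were led by B4GALT1 (-0.29 ± 0.04) and ST3GAL4 (-0.41 ± 0.08).

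Of 22 tested genes of granule release, 10 were higher and 6 lower with GFI1 in attached cells (median 0.10) and 12 and 6 in floating cells (median 0.38), beside 29.5% and 32.8% of all tested genes in attached and 29.3% and 31.1% in floating cells. With suspension 9 were higher and 1 lower in control (median 0.20), 8 and 1 in GFI1 cells (median 0.18), beside 19.6% and 20.5% of all tested genes in control and 15.0% and 16.3% in GFI1 cells. The interaction was positive for 4 and negative for 4, beside 4.76% and 6.01% of all tested genes. SYTL2, an effector that docks granules, led the higher genes with GFI1 (2.92 ± 0.06 and 2.13 ± 0.05), and SLC12A2, the basolateral chloride cotransporter that feeds mucus hydration, led the lower ones (-2.68 ± 0.05 and -2.99 ± 0.05). SLC12A2 also led the genes that rose with suspension in control cells (0.61 ± 0.05), and RAB27B, a granule GTPase, those in GFI1 cells (0.38 ± 0.05). UNC13D, a priming factor, was the gene that fell with suspension in both (-1.41 ± 0.09 and -0.92 ± 0.08).

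Of 31 tested genes for known regulators of mucin genes and of goblet cell fate, 8 were higher and 16 lower with GFI1 in attached cells (median -0.43) and 10 and 16 in floating cells (median -0.49), beside 29.5% and 32.8% of all tested genes in attached and 29.3% and 31.1% in floating cells. STAT6, which acts below interleukin-13, led the lower ones in attached cells (-1.73 ± 0.05), and EHF, an epithelial ETS factor, in floating cells (-4.02 ± 0.11). With suspension 12 were higher and 6 lower in control cells (median 0.23) and 13 and 3 in GFI1 cells (median 0.15), beside 19.6% and 20.5% and 15.0% and 16.3% of all tested genes, led by KLF5 (0.61 ± 0.04) and STAT6 (0.72 ± 0.05) and, among the lower ones, by HIF1A (-0.39 ± 0.04) and SOX2 (-0.48 ± 0.09). The interaction was positive for 6, led by SOX9 (0.60 ± 0.09), and negative for 2, led by SOX2 (-0.72 ± 0.12), beside 4.76% and 6.01% of all tested genes. Of 5 tested mucin and mucin-like genes outside the 10 members, 2 rose and 1 fell with GFI1 in attached cells (median 0.16), 1 and 2 in floating cells (median -0.05), 3 and 1 with suspension in control cells (median 0.48) and 2 and 1 in GFI1 cells (median 0.26), and 1 had a negative interaction. The shares of all tested genes given above for these comparisons stand beside these counts as well, with 6.01% for a negative interaction. PODXL, a sialomucin, was the lead of those higher with GFI1 (0.23 ± 0.05 and 0.37 ± 0.05) and fell with suspension (-0.39 ± 0.05 and -0.25 ± 0.05), and MUC12 was the lead of those lower with GFI1. CD164, another sialomucin, rose with suspension (0.48 ± 0.04 and 0.26 ± 0.04) and had the negative interaction (-0.21 ± 0.06).

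Markers of cell types were read beside the mucins as genes of a single cell line, not as counts of cell types. Fewer cells expressing a marker and less RNA per cell cannot be told apart in such bulk samples. The counts of markers that rose and fell stand beside 29.5% and 32.8% of all tested genes with GFI1 in attached cells, 29.3% and 31.1% in floating cells, 19.6% and 20.5% with suspension in control cells and 15.0% and 16.3% in GFI1 cells. Of the 12 goblet and club cell markers 6 were tested, and their summed level was 797 to 872 CPM in attached control, 273 to 293 CPM in attached GFI1, 1810 to 1958 CPM in floating control and 564 to 637 CPM in floating GFI1 libraries, led by AGR2 and FCGBP, which the folding list also holds. The lower sums with GFI1 were mostly the fall of AGR2, from 663 to 10.5 CPM attached and from 1095 to 17.8 CPM floating. FCGBP went from 136 to 265 CPM attached and from 755 to 561 CPM floating. With GFI1, 2 rose and 3 fell in attached and 2 rose and 4 fell in floating cells, and with suspension 4 rose in control and 3 in GFI1 cells. Of the 10 epithelial markers 9 were tested and the summed level was 10551 to 11149 CPM in attached control, 4404 to 4519 CPM in attached GFI1, 6743 to 7174 CPM in floating control and 3242 to 3634 CPM in floating GFI1 libraries. The lower sums with GFI1 were mostly the falls of KRT8 and KRT18. KRT8 went from 5769 to 1853 CPM attached and from 3702 to 1545 CPM floating. KRT18 went from 2670 to 662 CPM attached and from 1729 to 467 CPM floating. CDH1, the epithelial cadherin, fell with GFI1 (log2 -4.22 ± 0.07 and -4.42 ± 0.08), 3 markers rose and 5 fell in attached cells, and 0 rose and 5 fell in floating cells. With suspension 3 rose, led by ELF3 (0.48 ± 0.05 and 0.22 ± 0.05), and 4 fell, led by KRT7 (-0.71 ± 0.04 and -0.61 ± 0.04), in both control and GFI1 cells.

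Markers of other cells were lower. The 10 alveolar type 2 markers, of which 4 were tested and 2 had at most 3 counts in every library, summed to 116 to 121, 135 to 140, 105 to 115 and 143 to 147 CPM in attached control, attached GFI1, floating control and floating GFI1 libraries, nearly all from ABCA3. With GFI1, 2 rose in attached and 3 in floating cells, led by ABCA3 (0.19 ± 0.04 and 0.37 ± 0.04), and 1 fell with suspension in control and 1 rose in GFI1 cells. The 8 ciliated cell markers summed to 28.5 to 28.8, 40.2 to 45.1, 49.2 to 57.1 and 75.5 to 79.8 CPM. Of 6 tested, 3 rose in each pairwise comparison, led by CCDC78 with GFI1 (0.75 ± 0.10 and 0.81 ± 0.09) and by TPPP3 with suspension (2.83 ± 0.12 and 3.40 ± 0.12), and 1 fell with GFI1 in attached cells. The 10 leukocyte markers, 6 with at most 3 counts in every library (CD3E and FCGR3A at 0, and PTPRC, MS4A1 and LYZ among the others), summed to 21.8 to 23.1, 73.1 to 82.9, 35.4 to 42.7 and 79.4 to 85.0 CPM, of which ITGB2 made up most, at 14.5, 71.6, 25.5 and 74.3 CPM on average. Of 3 tested, 1 rose and 1 fell with GFI1 in attached cells and 1 and 2 in floating cells, and with suspension 2 rose in control and 1 in GFI1 cells. The 10 fibroblast markers, again 6 of them at that floor (DCN, FAP and POSTN at 0), summed to 7.89 to 15.7 CPM over all libraries. Of 4 tested, 1 rose and 1 fell with GFI1 in attached and 2 and 2 in floating cells, and with suspension 1 rose and 1 fell in control and 1 fell in GFI1 cells. The part of these markers in the mucin results was not tested.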

How the data were processed

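RNA-Seq was measured in 12 libraries, 3 in each of the 4 groups that the labels give. The authors deposited raw counts per gene, with positions, strand and gene length. By the study's methods, total RNA was isolated with Trizol, mRNA was selected by poly-T, and reads were aligned with Hisat2 to GRCh38 and counted with featureCounts. The submitters' processing notes list Bowtie2, HTSeq and hg38 instead, so the tool that made the counts is open. The annotation release, the strand setting and the handling of reads that fit several places are not given in the sources used here. The deposited table holds no columns of the authors' own comparisons, and 27 of its symbols had been turned into dates, none of them a mucin. Total counts ran from 17014188 to 20748677.

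Tests were run with edgeR 4.0.16 and limma 3.58.1 in R 4.3.3. The filter filterByExpr (at least 10 counts in enough libraries, at least 15 in total) left 17829 genes. Genes that passed it only through a group where they were high stayed in the counts of the lists. TMM scaling gave factors of 0.939 to 0.971 for control and 1.04 to 1.06 for GFI1 libraries. The 4 group means were fitted in a single quasi-likelihood model, from which GFI1 effects were taken in attached and floating cells, suspension effects in control and GFI1 cells, and the difference of the GFI1 effects as the interaction. The two-sided p values were adjusted by Benjamini-Hochberg over all tested genes within each comparison, and called at 0.05 or less. The SE was taken from the log2 fold change and its F statistic. The biological coefficient of variation was 4.86%. FPKM used the deposited gene length. A gene was at the floor with at most 3 counts in every library. The code was tested on simulated data.

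All 10 members are given for every comparison. Of each list of related genes, the strongest call by adjusted p is named, in each direction and each pairwise comparison. Some genes of the lists that this rule names are not reported here. For the 2 members with the widest range of group means, the 3 genes most like them are named, and the tested genes beside members are named. The lists were other mucins, O-glycan initiation, O-glycan extension, mucin folding and packaging, mucin granule secretion, mucin gene regulators, and markers of goblet and club, epithelial, alveolar type 2, ciliated, leukocyte and fibroblast cells. Members and lists were chosen with earlier results of these data known. The alternatives were DESeq2 1.42.0, scaling by RLE, by the upper quartile or by library size only, a replicate block, robust empirical Bayes, a filter of 10 counts in every library or none, fits of only the compared groups, an added 2-fold threshold, and leaving out each library in turn. Promoters were taken from RefSeq (GRCh38.p14) for 7 of the 10 members.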

Additional observations from a re-analysis of the deposited data

Results flagged for a closer look

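The GFI1 effect differed between floating and attached cells for 5 mucin genes by the interaction term of the edgeR model, given as the floating minus the attached log2 difference. It was -0.99 for MUC1 (adjusted p = 4.54e-06), with a smaller rise with GFI1 in floating than in attached cells, and -1.12 for MUC16 (adjusted p = 0.000108), likewise. For MUC5AC it was -1.26 (adjusted p = 3.33e-08), where every GFI1 library was above the controls in attached cells and below them in floating cells. For MUC5B it was -0.63 (adjusted p = 0.000136). For MUC3A it was 1.80 (adjusted p = 0.0419), a value that rests on 2 to 27 counts per library and lost its call in 8 of the 12 fits without 1 library (adjusted p from 0.0606 to 0.155). It held only without attached control replicate 1, attached GFI1 replicate 2, floating control replicate 3 or floating GFI1 replicate 3.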

How the results depend on the processing

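Over all alternatives, 951 of 1020 values of the 10 members kept their direction and their side of the threshold, 36 lost a call, 7 gained one and 26 changed sign. Of 50 pairs of a gene and a comparison, 4 lost a call without 1 library (MUC4 with GFI1 in attached cells, MUC3A with GFI1 in floating cells and in the interaction, and MUC2 with suspension in GFI1 cells) and 5 gained one. With an added 2-fold threshold, 3 members were called with GFI1 in attached cells, 1 in floating cells, 1 with suspension in GFI1 cells and 3 in the interaction, beside 6, 6, 5 and 5, because fewer values passed the added threshold. Of all 17829 tested genes, 3247, 3078, 500 and 241 were called in the same comparisons at that threshold. The values that changed sign were small. MUC5B with GFI1 in attached cells was 0.037 with upper quartile scaling, 0.13 with library size only, 0.012 with at least 10 counts in every library and 0.016 with only the 2 groups compared, and MUC20 there was 0.025 with library size only; the cause was not tested. Without 1 library, the log2 values ran from -0.14 to 0.073 for MUC5B and from -0.43 to 0.042 for MUC20 with GFI1 in attached cells, from -0.0017 to 0.45 for MUC3A and from -0.11 to 0.41 for MUC19 with suspension in control cells, from -0.041 to 0.11 for MUC5AC, from -0.056 to 0.13 for MUC19 and from -0.087 to 0.39 for MUC20 with suspension in GFI1 cells, and from -0.35 to 0.17 for MUC19 and from -0.27 to 0.20 for MUC20 in the interaction. Library size only moved the median of all genes with GFI1 to 0.14 in attached and floating cells, and the share of higher among all calls from 47.4% to 61.5% and from 48.5% to 61.4%. Same-numbered libraries did not deviate together, with correlations from -0.016 to 0.009, so the numbers were not read as pairs. With the replicate block 5, 6, 5, 5 and 5 members were called, beside 11054, 10713, 7110, 5546 and 1904 of the 17829 tested genes. MUC4 with GFI1 in attached cells lost its call there (adjusted p = 0.0504). For the related lists, 1215 of 1308 counts stayed within 1.5 times the reported count. Without division by length, MUC5B, MUC5AC and MUC1 stayed in the first 3 places in every group. MUC13 then kept place 4 in attached control cells only, and took place 5 in floating control cells and place 6 in both GFI1 groups. Depth limits MUC3A, MUC4, MUC20 and, in control cells, MUC19.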
